A study of Mus musculus with 24 samples.

Results

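The expression of 10 genes for growth factor receptors was examined in livers of α7HMZ and WT mice. They were the 4 fibroblast growth factor (FGF) receptors *Fgfr1*, *Fgfr2*, *Fgfr3* and *Fgfr4*, the co-receptor *Klb*, the ERBB receptors *Egfr*, *Erbb2* and *Erbb3*, the hepatocyte growth factor receptor *Met* and the insulin-like growth factor receptor *Igf1r*. The genes were chosen by symbol, and all 10 were found among the 23411 genes of the count table. α7HMZ mice carry an altered *Hnf4a* gene from which only the P2 isoforms of the transcription factor HNF4α are made. WT livers express the P1 isoforms. The count of *Hnf4a* covers the whole gene and does not separate P1 from P2 transcripts, so it does not check the genotype labels. All mice were males of 16 to 20 weeks on a mixed 129/Sv plus C57BL/6 background. α7HMZ and WT mice with free access to chow were killed at 10:30 or 13:30, in the light phase, or at 20:30, in the dark phase, and a further group of each genotype was killed at 10:30 after a fast of 12 h. There were 8 groups of 3 mice, with 1 library of poly(A) RNA from whole liver per mouse, and the altered allele was present in every cell type of the liver.

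Receptor tyrosine kinases carry signals of secreted growth factors into the cell: ligand binding pairs the receptors, the paired kinases phosphorylate each other, and adaptors pass the signal to the RAS-MAPK and PI3K-AKT pathways. In hepatocytes FGFR4 with the co-receptor β-Klotho (encoded by *Klb*) receives FGF15 from the ileum and lowers bile acid synthesis, while FGFR1 with β-Klotho is the main receptor of FGF21 in other tissues such as fat. EGFR and MET drive liver regeneration, ERBB3 binds neuregulins but has a nearly inactive kinase and signals through partner receptors, and IGF1R is scarce in adult hepatocytes, which make much of the circulating IGF1.

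The receptor genes lie on 7 chromosomes in GRCm38.p6, the assembly to which mm10 belongs: *Fgfr1* at chr8:25518759-25575718, *Fgfr2* at chr7:130162451-130266808, *Fgfr3* at chr5:33721724-33737068, *Fgfr4* at chr13:55152818-55168759, *Klb* at chr5:65348411-65386957, *Egfr* at chr11:16752203-16913907, *Erbb2* at chr11:98412484-98437716, *Erbb3* at chr10:128567523-128589635, *Met* at chr6:17463349-17573980 and *Igf1r* at chr7:67952257-68233668. RefSeq promoters of 300 bases, from 250 bases before to 50 after the start, were matched by symbol for 8 of the 10 genes, with 2 starts for *Fgfr3*, and were searched on both strands. The 4 shown include those of a receptor higher in α7HMZ livers (*Fgfr2*), one lower (*Fgfr3*, the first start) and one lower after fasting (*Egfr*). The other is that of *Met*, whose genotype difference varied between the fed times. The *Met* window begins at 17463707, inside the gene as placed above, which begins at 17463349. It therefore surrounds a later start and does not lie upstream of the gene. Capitals mark the E-box letters CACGTG, to which the clock factors CLOCK and BMAL1 can bind, and the GC box letters GGGCGG of SP1, also where they read CCGCCC on the printed strand.
Fgfr2, chr7:130266759-130267058, minus strand: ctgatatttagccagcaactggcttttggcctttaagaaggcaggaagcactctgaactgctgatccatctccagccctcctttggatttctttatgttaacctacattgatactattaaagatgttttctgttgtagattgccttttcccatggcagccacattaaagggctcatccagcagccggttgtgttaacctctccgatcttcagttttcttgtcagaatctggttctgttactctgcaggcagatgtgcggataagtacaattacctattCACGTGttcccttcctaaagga
Fgfr3, chr5:33721474-33721773, plus strand: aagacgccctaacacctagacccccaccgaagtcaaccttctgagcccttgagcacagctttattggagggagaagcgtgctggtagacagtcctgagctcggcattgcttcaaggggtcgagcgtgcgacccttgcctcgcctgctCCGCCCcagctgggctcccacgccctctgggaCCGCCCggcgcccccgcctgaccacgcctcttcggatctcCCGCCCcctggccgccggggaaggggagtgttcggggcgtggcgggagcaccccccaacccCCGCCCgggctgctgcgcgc
Met, chr6:17463707-17464006, plus strand: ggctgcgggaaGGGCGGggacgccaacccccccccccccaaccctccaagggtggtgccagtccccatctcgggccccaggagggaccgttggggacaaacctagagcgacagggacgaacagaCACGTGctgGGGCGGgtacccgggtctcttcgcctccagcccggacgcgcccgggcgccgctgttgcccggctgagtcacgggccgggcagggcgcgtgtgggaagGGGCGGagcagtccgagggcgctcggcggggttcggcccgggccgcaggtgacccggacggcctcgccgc
Egfr, chr11:16751953-16752252, plus strand: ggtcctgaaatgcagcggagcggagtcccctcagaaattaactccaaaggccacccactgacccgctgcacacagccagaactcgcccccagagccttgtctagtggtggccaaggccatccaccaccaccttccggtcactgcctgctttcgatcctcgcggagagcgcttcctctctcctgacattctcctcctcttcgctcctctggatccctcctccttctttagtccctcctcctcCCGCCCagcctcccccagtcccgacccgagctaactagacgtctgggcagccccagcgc

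CACGTG stood in the promoters of *Fgfr2* and *Met* and in 7.15% of the 32851 promoters in the table. GGGCGG stood in those of *Fgfr3*, *Fgfr4*, *Met*, *Igf1r* and *Egfr*, against 35.7% of all promoters. The HNF4 site letters CAAAGTCCA and CAAAGGTCA were in none of the 9 promoters of the receptors and in 0.475% and 0.478% of all, and TATAAA was in none of the 9 and in 13.6% of all. A match in these windows is a description of the letters and not a binding site. The GC content was 43.7% for *Fgfr2* and 48.3% for *Klb*, below the median of 52.7% over all promoters, and 75.7% and 76.0% for *Met* and *Igf1r*.

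The libraries held 8545959 to 28445590 counted reads (median 18875060), and in one library, α7HMZ 10:30 replicate 1, 50.8% of the reads were assigned to the ribosomal RNA gene *Rn45s*, against at most 3.76% in the others. At 20:30 the bile duct keratin *Krt19* was high in α7HMZ replicates 1 and 3 (14.2 and 12.54 CPM, the read count of a gene scaled to the size of its library) and WT replicate 2 (18.3 CPM), and the pancreatic *Ctrb1* was found in the same libraries (1.87 to 4.999 CPM). Results that rest on fed livers were also computed without these 4 libraries, which leaves 1 α7HMZ library at 20:30, assumed to vary like the other groups. Lower levels of *Krt19* and *Ctrb1* were found in WT 20:30 replicate 3 (4.32 and 0.322 CPM) and in fasted WT replicates 1 (7.07 and 0.393 CPM) and 2 (4.63 and 0.534 CPM). Those libraries were left out only one at a time. Hepatocyte markers were present in every library (*Alb* at 56940 CPM or more). CPM are scaled with TMM factors, which correct for differences in composition between libraries. Fed α7HMZ and WT livers of one time were sequenced on one flow cell, as were fasted and fed WT livers, whereas fasted α7HMZ livers were on another flow cell than fed α7HMZ and fasted WT livers at 10:30. In whole liver, fewer cells of a type and less RNA per cell cannot be told apart.

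All 10 receptors passed the filter on low counts, but at very different depths. *Egfr* had 3115 to 24311 reads per library, *Fgfr1* 63 to 540, *Igf1r* 16 to 106 and *Erbb2* 7 to 64. Per kilobase of exon, *Egfr* had the highest level in each group. In α7HMZ livers at 10:30 it was followed by *Fgfr4* (11.5 ± 1.60 CPM per kb), *Met* (7.69 ± 1.87), *Klb* (7.22 ± 1.42) and *Erbb3* (5.89 ± 2.23), and in WT livers at 10:30 by *Erbb3* (23.9 ± 6.14), *Met* (13.4 ± 0.389), *Klb* (9.54 ± 1.03) and *Fgfr4* (9.15 ± 0.570; SD, n = 3 each). *Erbb3* thus had rank 5 among the receptors in α7HMZ livers and rank 2 in WT livers at this time, although *Met*, *Klb* and *Erbb3* lay within their SDs of each other in the α7HMZ group. These ranks depend on the length assumed for each gene. With the longest transcript *Erbb3* had rank 6 in α7HMZ and rank 2 in WT livers, and with the lengths implied by the deposited FPKM, tried after the data were seen, rank 4 in α7HMZ and rank 2 in WT livers. *Egfr* was first in each group with all 3 lengths. *Erbb2* and *Igf1r* were last in both genotypes by exon and transcript length, but with the FPKM lengths *Igf1r* had rank 8 in both, above *Fgfr3* in α7HMZ livers and *Fgfr1* in WT livers.

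**Figure D1:**
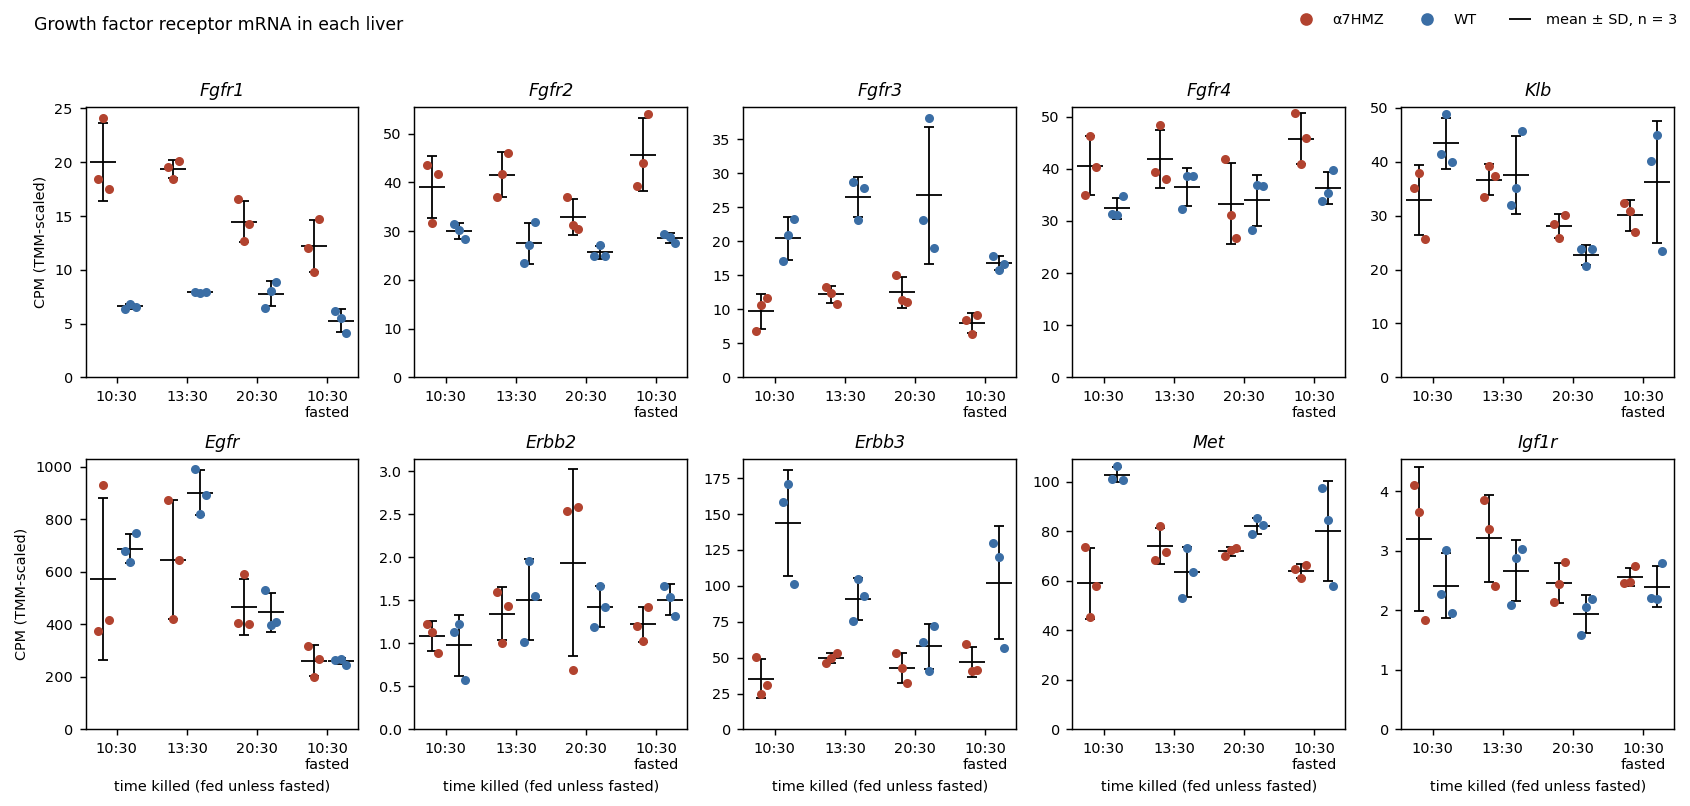
CPM of the 10 receptor genes in each liver (points), by time killed, in α7HMZ and WT mice, with the mean ± SD of 3 mice; the y axes are linear, start at 0 and differ between panels. *Fgfr1* lay between 12.7 and 24.2 CPM in fed α7HMZ livers and between 6.40 and 8.83 CPM in fed WT livers, and *Fgfr3* lay the other way round.

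Averaged over the 3 fed times, 5 of the 10 receptors differed between the genotypes. *Fgfr1* and *Fgfr2* were higher in α7HMZ livers, and *Fgfr3*, *Erbb3* and *Met* were lower. Over all 13334 genes tested 26.5% were called (13.3% higher and 13.2% lower), by edgeR's quasi-likelihood test at an adjusted p under 0.05. The median log2 fold change was 0.049 for the receptors and 0.027 for all genes, with receptors on both sides of 0. Without the 4 libraries named above the called receptors had log2 fold changes of 1.22 (*Fgfr1*), 0.40 (*Fgfr2*), −0.96 (*Fgfr3*), −1.29 (*Erbb3*) and −0.31 (*Met*), and all 5 still passed the test (adjusted p at most 0.0194, edgeR).

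*Fgfr1* differed most clearly. At 10:30 it had 18.4, 24.2 and 17.5 CPM in α7HMZ livers, against 6.40, 6.83 and 6.59 CPM in WT livers. At 13:30 it had 19.6, 18.4 and 20.1 CPM in α7HMZ livers, against 7.96, 7.87 and 7.96 CPM in WT livers. At 20:30 it had 16.6, 12.7 and 14.2 CPM in α7HMZ livers, against 6.49, 8.08 and 8.83 CPM in WT livers. Every fed α7HMZ liver was above every fed WT liver. The log2 fold change was 1.61 at 10:30 (SE 0.15, adjusted p = 4.07e-07), 1.29 at 13:30 (SE 0.14, adjusted p = 4.2e-06) and 0.91 at 20:30 (SE 0.15, adjusted p = 0.000286; edgeR), and 1.27 over the fed times (SE 0.083, adjusted p = 1.25e-09). Without the 4 libraries it was 0.74 at 20:30 (SE 0.21, adjusted p = 0.0390). The difference did not pass the test of a change with time (adjusted p = 0.0928, edgeR). *Fgfr1* shares 164 exon bases with the antisense gene *Gm16159*, and without strand information their reads cannot be told apart.

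*Fgfr3*, another FGF receptor, was lower in α7HMZ livers by nearly the same amount at each time. At 10:30 it had 6.82, 10.6 and 11.7 CPM in α7HMZ livers, against 17.1, 20.9 and 23.3 CPM in WT livers. At 13:30 it had 13.4, 12.4 and 10.9 CPM in α7HMZ livers, against 28.7, 23.2 and 27.8 CPM in WT livers. At 20:30 it had 15.1, 11.3 and 11.02 CPM in α7HMZ livers, against 23.1, 38.2 and 19.0 CPM in WT livers. No fed α7HMZ liver reached the lowest WT liver. The log2 fold changes were −1.05, −1.12 and −1.07 at 10:30, 13:30 and 20:30 (SE 0.23, 0.22 and 0.23; adjusted p = 0.00462, 0.00220 and 0.00313, edgeR). Over the fed times it was −1.08 (SE 0.13, adjusted p = 4.68e-06). The gene on the opposite strand, *G630022F23Rik*, shares 998 exon bases with it and could not be separated.

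*Fgfr2*, which in many tissues has splice forms for epithelial and mesenchymal ligands that a gene count does not separate, was higher by less. At 13:30 it had 36.9, 41.8 and 46.0 CPM in α7HMZ livers, against 23.5, 27.1 and 31.95 CPM in WT livers. The groups did not overlap at this time (log2 fold change 0.60, SE 0.13, adjusted p = 0.00587). At 10:30 (0.38, adjusted p = 0.0606) and 20:30 (0.37, adjusted p = 0.0703) the groups did not overlap either, but the test was not passed (edgeR). Without α7HMZ 10:30 replicate 2, the lowest of its group at 31.7 CPM, *Fgfr2* passed at 10:30 (0.51, adjusted p = 0.0189) and at 20:30 (0.37, adjusted p = 0.0464). The average over the fed times was 0.45 (SE 0.079, adjusted p = 0.000266, edgeR). When the 4 libraries named above were left out, *Fgfr2* had log2 fold changes of 0.27 at 10:30 and 0.33 at 20:30. *Fgfr4*, the FGF15 receptor of hepatocytes, had 26.8 to 48.3 CPM in fed α7HMZ livers (median 39.4) and 28.3 to 38.7 CPM in fed WT livers (median 34.7), and its average log2 fold change of 0.17 (SE 0.091) did not pass (adjusted p = 0.187). *Klb* had 25.6 to 39.2 CPM in fed α7HMZ livers (median 33.5) and 20.6 to 48.8 CPM in fed WT livers (median 35.1), with an average log2 fold change of −0.04 (SE 0.087, adjusted p = 0.766, edgeR). This average joins values of opposite sign, −0.40 at 10:30 (SE 0.15, adjusted p = 0.0778) and 0.30 at 20:30 (SE 0.15, adjusted p = 0.181, edgeR). The groups did not overlap at either time, but neither test was passed. At 13:30 the value was −0.03. Genotype by time, in which the flow cell differs too, did not pass for *Klb* (adjusted p = 0.106, edgeR). Without the 4 libraries named above *Klb* had −0.48 at 10:30 and 0.12 at 20:30.

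The 4 FGF receptors contributed differently to their sum in the 2 genotypes. Reads per kilobase of exon were summed over *Fgfr1* to *Fgfr4* in each liver, which makes the shares independent of library scaling. In fed livers *Fgfr1* made up 10.1 ± 1.25% of the sum in α7HMZ mice and 4.56 ± 0.431% in WT mice (SD, n = 9 each), and the highest WT share, 5.48%, was below the lowest α7HMZ share, 8.73%. *Fgfr3* made up 9.01 ± 1.92% in α7HMZ and 20.6 ± 3.88% in WT livers. *Fgfr2* made up 20.5 ± 2.90% in α7HMZ and 16.3 ± 2.29% in WT livers. *Fgfr4* made up 60.3 ± 2.98% in α7HMZ and 58.5 ± 2.96% in WT livers. The reads of *Fgfr1* per read of *Fgfr3*, which need no length, ranged from 1.10 to 2.71 in fed α7HMZ livers (median 1.49) and from 0.211 to 0.464 in fed WT livers (median 0.286). No test was made of shares or ratios, which restate the levels above. All 4 shares depend on the lengths assumed. The annotated *Fgfr2* gene used for its exon length reaches to chr7:133123350, against 130266808 in RefSeq. It shares 314 exon bases with *Ctbp2*, a protein-coding gene on the same strand. With the longest annotated transcript of each gene *Fgfr1* had 13.5% in α7HMZ and 6.21% in WT livers. With the lengths implied by the FPKM *Fgfr2* had 38.3% in α7HMZ and 33.3% in WT livers, and *Fgfr3* had 2.08% in α7HMZ and 5.24% in WT livers. *Fgfr4* had 56.5% in α7HMZ and 59.9% in WT livers with these lengths, so that its small difference turned round, and with no length it had 36.3% in α7HMZ livers, next to 35.8% for *Fgfr2*. The share of *Fgfr1* was higher and that of *Fgfr3* lower in α7HMZ livers with every length tried.

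**Figure D2:**
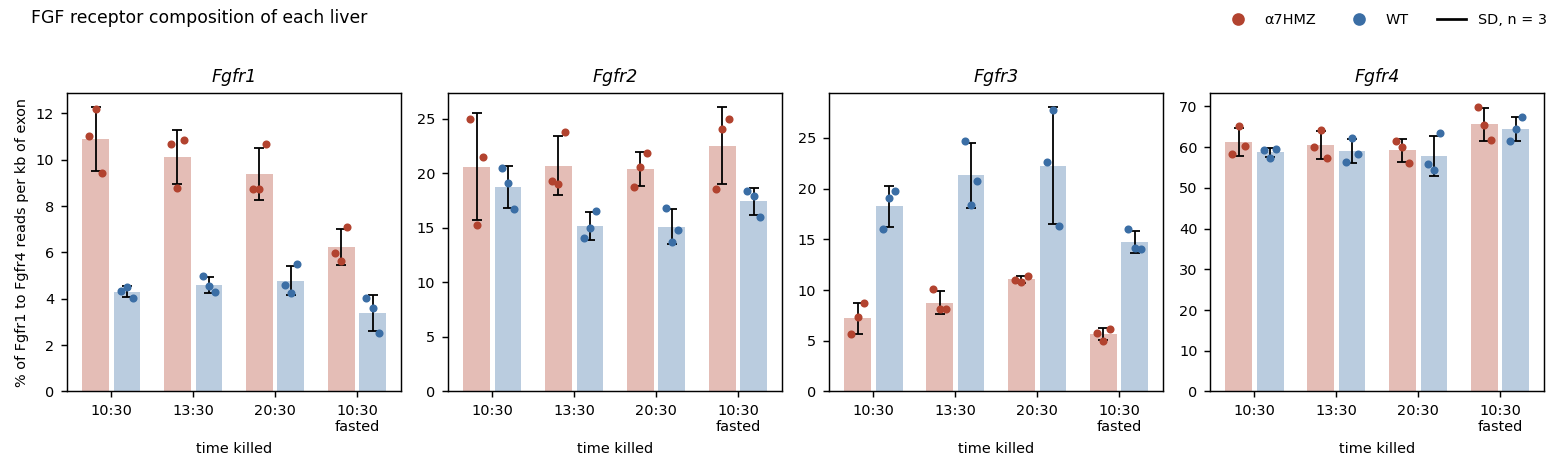
Share of *Fgfr1*, *Fgfr2*, *Fgfr3* and *Fgfr4* in the summed reads per kilobase of the 4 genes, in each liver (points) with the mean of 3 mice (bars) and the SD (error bars), by time killed. The *Fgfr1* bars of α7HMZ livers stand above those of WT livers at each time and the *Fgfr3* bars below, while *Fgfr4* held 54.3% to 65.2% of the sum in the fed livers of both genotypes.

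*Erbb3*, the neuregulin receptor, was lower in α7HMZ livers, and its difference varied between the fed times. At 10:30 it had 50.5, 24.7 and 31.1 CPM in α7HMZ livers, against 158, 171 and 101.6 CPM in WT livers. At 13:30 it had 46.4, 49.6 and 53.4 CPM in α7HMZ livers, against 75.6, 105 and 92.6 CPM in WT livers. At 20:30 it had 53.3, 43.1 and 32.2 CPM in α7HMZ livers, against 60.6, 41.0 and 72.2 CPM in WT livers. The groups were apart at the 2 light-phase times and overlapped at 20:30. *Erbb3* was lower in α7HMZ livers by a log2 fold change of −2.01 at 10:30 (SE 0.26, adjusted p = 2.81e-05) and −0.87 at 13:30 (SE 0.25, adjusted p = 0.0268), and the value at 20:30, −0.44 (SE 0.25), did not pass (adjusted p = 0.235, edgeR). The average over the fed times was −1.11 (SE 0.15, adjusted p = 1.16e-05).

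The change of the *Erbb3* difference with time passed the edgeR test of genotype by time (adjusted p = 0.0358), in which 4.99% of all genes were called. This call was lost, with adjusted p between 0.0530 and 0.0951, when any one of 9 libraries was left out, namely α7HMZ 10:30 replicates 2 and 3, WT 10:30 replicates 1 and 2, α7HMZ 13:30 replicates 1, 2 and 3, WT 13:30 replicate 3 or α7HMZ 20:30 replicate 1. Without the 4 libraries with high *Rn45s*, *Krt19* or *Ctrb1* it was 0.00798. The call of genotype by time was also lost with all 24 libraries in 1 fit (0.0556). The call at 13:30 was lost when offsets for GC content were used (−0.74, adjusted p = 0.0565) and without any one of α7HMZ 13:30 replicates 1, 2 and 3 or WT 13:30 replicates 2 and 3 (adjusted p 0.0585 to 0.0890). The call at 10:30 was kept whichever library was left out. In the change of the *Erbb3* difference, and in that of *Met* below, time of day and flow cell cannot be told apart.

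*Met*, the receptor of hepatocyte growth factor, was called lower in α7HMZ livers at 10:30 and at neither of the other times. At 10:30 it had 73.8, 45.2 and 58.1 CPM in α7HMZ livers, against 101.1, 106 and 100.9 CPM in WT livers. At 13:30 it had 68.3, 82.2 and 71.8 CPM in α7HMZ livers, against 53.2, 73.5 and 63.7 CPM in WT livers. At 20:30 it had 70.0, 72.4 and 73.4 CPM in α7HMZ livers, against 78.7, 85.4 and 82.5 CPM in WT livers. The groups were apart at 10:30 and, by a smaller margin, at 20:30, and overlapped at 13:30. The log2 fold change was −0.79 at 10:30 (SE 0.14, adjusted p = 0.000747), 0.23 at 13:30 (SE 0.14, adjusted p = 0.353) and −0.19 at 20:30 (SE 0.14, adjusted p = 0.364; edgeR). Genotype by time passed (adjusted p = 0.0239) and was 0.0550 without WT 10:30 replicate 1, 0.0657 without WT 10:30 replicate 2 and 0.0506 without WT 13:30 replicate 3. The average over the fed times was small, −0.25 (SE 0.081, adjusted p = 0.0266), and missed the threshold without WT 10:30 replicate 2 (0.0511) or WT 13:30 replicate 2 (0.0640), with upper quartile factors (0.0607), and when offsets for GC content were used (0.172). At 10:30 the summed levels of some marker lists were apart between the groups. The stellate cell list summed to 196 to 265 CPM in α7HMZ livers, against 284 to 363 CPM in WT livers. The endothelial list summed to 329 to 430 CPM in α7HMZ livers, against 481 to 534 CPM in WT livers. The hepatocyte list summed to 105000 to 126000 CPM in α7HMZ livers, against 130000 to 161000 CPM in WT livers. The erythroid list (66.0 to 76.9 against 154 to 167 CPM) and the smooth muscle list (14.5 to 17.6 against 18.7 to 22.6 CPM) were lower too. The cholangiocyte list was apart the other way (60.0 to 73.6 against 49.9 to 59.0 CPM). Of the single markers 0 of 10 stellate and 1 of 10 endothelial ones were called at this time, and 2 of 9 hepatocyte ones were called lower. The part of these cells in the *Met* and *Erbb3* results was not tested.

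*Egfr*, the most abundant receptor, varied widely among α7HMZ livers. At 10:30 it had 374, 930 and 416 CPM in α7HMZ livers, against 679, 639 and 746 CPM in WT livers. At 13:30 it had 873, 422 and 644 CPM in α7HMZ livers, against 990, 821 and 890 CPM in WT livers. At 20:30 it had 407, 590 and 401 CPM in α7HMZ livers, against 532, 399 and 407 CPM in WT livers. The genotypes overlapped at each time, and the average log2 fold change of −0.22 (SE 0.16) did not pass (adjusted p = 0.347). Without α7HMZ 10:30 replicate 2, the library with 930 CPM, it was −0.40 (adjusted p = 0.0236, edgeR), and at 10:30 it was −0.79 (adjusted p = 0.0357) against −0.26 with it. *Klb* at 10:30 also passed without this library (−0.51, adjusted p = 0.0496, edgeR). *Egfr* had log2 fold changes of −0.064 over the fed times and −0.055 at 10:30 without the 4 libraries named above.

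*Erbb2*, the ERBB receptor without a ligand of its own, had 0.688 to 2.59 CPM in fed α7HMZ livers and 0.569 to 1.96 CPM in fed WT livers. Its average log2 fold change was 0.14 (SE 0.23, adjusted p = 0.713, edgeR). The 2 highest livers, with 2.54 and 2.59 CPM, were α7HMZ 20:30 replicates 1 and 3, which also had high *Krt19*, and without the 4 libraries the average was −0.38 (SE 0.25, adjusted p = 0.306). *Igf1r* had 1.83 to 4.11 CPM in fed α7HMZ livers and 1.58 to 3.03 CPM in fed WT livers, with an average of 0.34 (SE 0.16, adjusted p = 0.136). Without α7HMZ 10:30 replicate 3 it was 0.44 (adjusted p = 0.0267, edgeR).

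Counted by time, 1 receptor was higher and 3 were lower at 10:30, where 17.3% of all genes were called (8.36% higher and 8.98% lower). At 13:30, 2 were higher and 2 lower, of 12.8% of all genes (6.19% and 6.61%), and at 20:30, 1 was higher and 1 lower, of 19.1% of all genes (8.29% and 10.8%). *Fgfr1* and *Fgfr3* were called at each time. The groups did not overlap for 7, 4 and 5 of the receptors at 10:30, 13:30 and 20:30, against 32.7%, 35.3% and 32.9% of all genes.

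**Figure D3:**
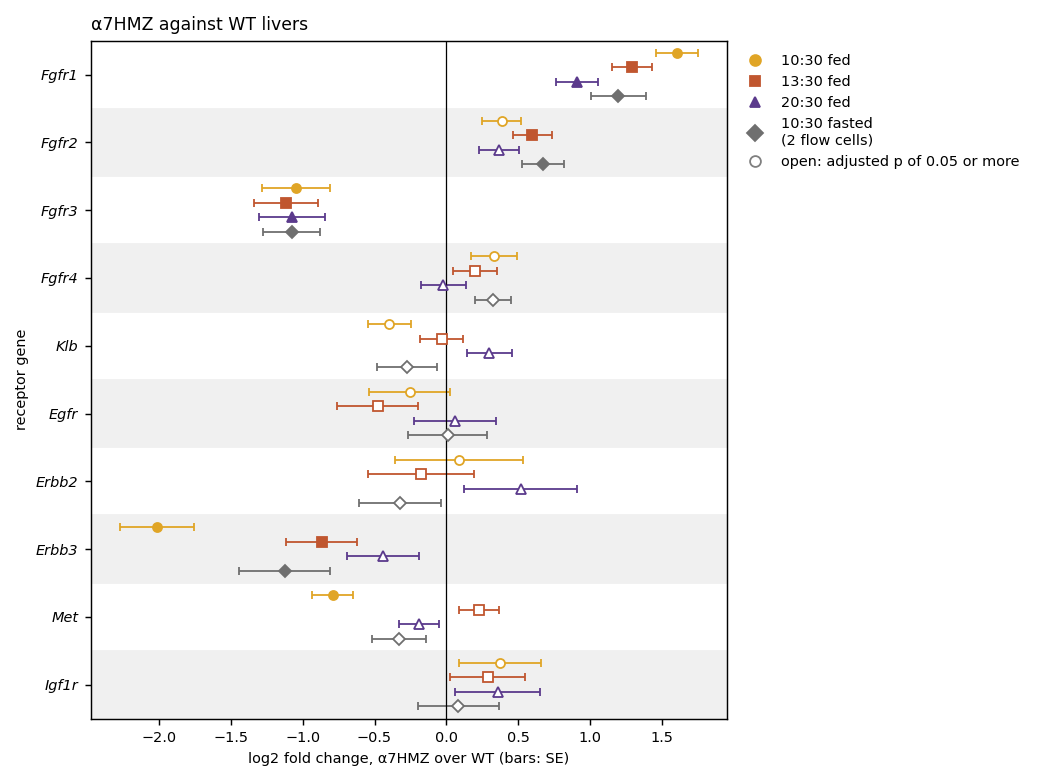
Log2 fold change of each receptor in α7HMZ over WT livers (x axis), at the 3 fed times and after fasting; bars are the SE of the edgeR fit with 3 mice per group, and filled symbols have an adjusted p under 0.05. *Fgfr1* lies to the right and *Fgfr3* to the left of 0 at each time, and *Erbb3* lies at −2.01 at 10:30 and −0.44 at 20:30.

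Dark phase livers (20:30) were set against light phase livers (13:30) within each genotype. In α7HMZ livers none of the 10 receptors passed, where 5.21% of all genes were called by edgeR; 3 had an unadjusted p under 0.05 (*Fgfr1*, *Fgfr2* and *Klb*), and DESeq2 also called 0. In WT livers *Klb* and *Egfr* were lower at 20:30, where 21.6% of all genes were called, 9.97% as lower. *Klb* had 23.8, 20.6 and 23.7 CPM at 20:30, against 31.9, 35.1 and 45.7 CPM at 13:30 (log2 fold change −0.71, SE 0.15, adjusted p = 0.00402, edgeR). The WT groups did not overlap for *Klb*, and the call was kept in every alternative run. The *Egfr* values given above had a log2 fold change of −1.0 (SE 0.29, adjusted p = 0.0189, edgeR) in WT livers, and the call was lost without WT 13:30 replicate 1 (adjusted p = 0.0582), WT 20:30 replicate 2 (0.0657) or WT 20:30 replicate 3 (0.0748). In WT livers 3 of 8 cholangiocyte markers were called higher at 20:30 and 5 of 9 hepatocyte and 2 of 3 mesothelial markers too. Of the endothelial markers 3 of 10 were lower and 1 higher, and of the stellate cell markers 2 of 10 were lower, *Col1a1* (−1.91) and *Col3a1* (−1.04). The part of these cells in the results was not tested.

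*Met* in WT livers had a log2 fold change of 0.38 between 20:30 and 13:30 (adjusted p = 0.0590) and passed without WT 13:30 replicate 2 (0.49, adjusted p = 0.0376), α7HMZ 10:30 replicate 1 (0.39, 0.0228) or α7HMZ 10:30 replicate 2 (0.38, 0.0280; edgeR), and in DESeq2 (0.0489). With upper quartile factors *Met* passed too (0.41, adjusted p = 0.0478, edgeR). *Erbb3* had −0.63 (adjusted p = 0.0759) and passed without α7HMZ 10:30 replicate 1 (−0.62, 0.0456). It also passed with only the WT groups compared in the fit (−0.66, adjusted p = 0.0296, edgeR). The corresponding values in α7HMZ livers were −0.38 for *Klb*, −0.47 for *Egfr*, −0.04 for *Met* and −0.20 for *Erbb3* (SE 0.15, 0.28, 0.14 and 0.25). The difference between the genotypes in the dark against light contrast was tested directly and passed for none of the receptors, against 0.225% of all genes in edgeR; *Met* alone had an unadjusted p under 0.05, and DESeq2 called 0. The 2 genotypes are therefore not shown to differ in it.

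Fasted WT livers differed from fed WT livers in 1 of the 10 receptors, where 22.7% of the 13103 genes tested were called, 10.6% as lower. *Egfr* had 263, 269 and 246 CPM in fasted WT livers, against 679, 639 and 746 CPM in fed WT livers at 10:30. The groups were well apart, with a log2 fold change of −1.40 (SE 0.28, adjusted p = 0.00319, edgeR), and the call was kept in every alternative run. Of the other receptors, *Fgfr1* had 6.18, 5.52 and 4.16 CPM in fasted WT livers (log2 fold change −0.32, adjusted p = 0.275), *Met* had 97.6, 84.5 and 58.0 CPM (−0.35, adjusted p = 0.191) and *Erbb3* 130, 120 and 57.0 CPM (−0.48, adjusted p = 0.281). In all 3 genes WT fasted replicate 3 was the lowest. *Erbb2*, with 1.67, 1.54 and 1.32 CPM in fasted against 1.13, 1.23 and 0.569 CPM in fed WT livers, had 0.59 (adjusted p = 0.169, edgeR). The groups did not overlap for 4 receptors, against 45.8% of all genes.

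Markers of other cells differed with fasting in WT livers. Of the sinusoidal endothelial markers 7 of 10 were lower, and their summed level was 226 to 370 CPM in fasted and 481 to 534 CPM in fed WT livers. Of the stellate cell markers 4 of 10 were lower (208 to 263 CPM in fasted, 284 to 363 CPM in fed livers), of the Kupffer cell markers 3 of 9 were lower (104 to 192 CPM in fasted, 288 to 388 CPM in fed livers) and of the cholangiocyte markers 4 of 7 were higher (70.5 to 87.5 CPM in fasted, 49.9 to 59.0 CPM in fed livers). One of the called cholangiocyte markers was *Krt19*, with 7.07, 4.63 and 1.27 CPM in fasted WT livers, against 0.817 to 1.14 CPM in fed WT livers at 10:30. Fasted replicates 1 and 2 also held the pancreatic *Ctrb1* (0.393 and 0.534 CPM). The part of all these cells in the *Egfr* result was not tested.

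In fasted α7HMZ livers *Egfr* had 317, 200 and 269 CPM, against 374, 930 and 416 CPM in fed α7HMZ livers at 10:30 (log2 fold change −1.12, SE 0.28, adjusted p = 0.0167, edgeR). *Fgfr1* had 12.1, 9.82 and 14.7 CPM in fasted α7HMZ livers, against 18.4, 24.2 and 17.5 CPM in fed α7HMZ livers (−0.71, SE 0.18, adjusted p = 0.0218). These were the 2 receptors called, where 12.6% of all genes were called, 5.9% as lower, and the fasted and fed livers did not overlap for either. Fasting and flow cell cannot be told apart here. The Kupffer cell list summed to 171, 190 and 822 CPM in fasted and 234 to 326 CPM in fed α7HMZ livers. Fasted replicate 3 stood above all fed livers, also in lymphocyte markers (29.5 CPM). The other 2 stood below all fed livers in the Kupffer cell list but not in lymphocyte markers. In lymphocyte markers they had 7.87 and 9.97 CPM, against 5.60 to 9.26 CPM in fed α7HMZ livers. All fasted α7HMZ livers stood below the fed ones in the hepatocyte list (88600 to 104000 against 105000 to 126000 CPM). The same held for the erythroid (41.9 to 49.1 against 66.0 to 76.9 CPM) and acinar lists (10.4 to 15.0 against 30.7 to 47.7 CPM). The neutrophil list stood above (1.26 to 4.73 against 0.0 to 1.14 CPM). The part of these cells in the results was not tested. Neither call was kept without α7HMZ 10:30 replicate 2 (*Egfr* −0.59, adjusted p = 0.0538; *Fgfr1* −0.56, adjusted p = 0.106) or without α7HMZ fasted replicate 2 (0.0699 and 0.0896), and that of *Fgfr1* was also lost without α7HMZ fasted replicate 1 (0.0663). With only the fasted and fed α7HMZ livers in the fit they had 0.0935 for *Egfr* and 0.0689 for *Fgfr1*. Genotype by fasting passed for none of the receptors, against 0.252% of all genes in edgeR, with 0 at an unadjusted p under 0.05 and 0 in DESeq2.

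**Figure D4:**
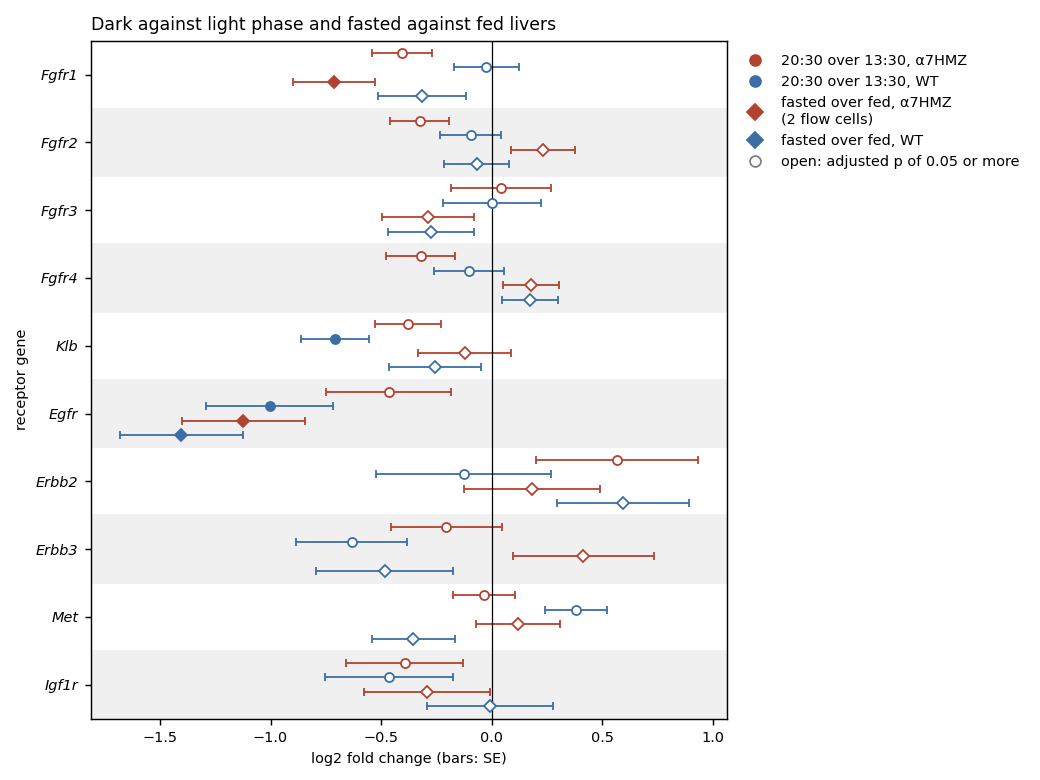
Log2 fold change of each receptor for 20:30 over 13:30 in fed livers (circles) and for fasted over fed livers at 10:30 (diamonds), in α7HMZ and WT mice; bars are the SE of the edgeR fit with 3 mice per group, and filled symbols have an adjusted p under 0.05. In WT mice the filled symbols are *Klb* and *Egfr* for the dark phase and *Egfr* for fasting.

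The fasted livers gave the genotype comparison once more, although on different flow cells, so that genotype and flow cell cannot be told apart. *Fgfr1* had 12.1, 9.82 and 14.7 CPM in fasted α7HMZ livers, against 6.18, 5.52 and 4.16 CPM in fasted WT livers (log2 fold change 1.20, SE 0.19, adjusted p = 0.00116, edgeR). *Fgfr2* had 39.2, 44.0 and 54.0 CPM in fasted α7HMZ livers, against 29.5, 28.7 and 27.6 CPM in fasted WT livers (0.67, SE 0.14, adjusted p = 0.00724). *Fgfr3* had 8.50, 6.32 and 9.24 CPM in fasted α7HMZ livers, against 17.8, 15.8 and 16.7 CPM in fasted WT livers (−1.08, SE 0.20, adjusted p = 0.00300). For these 3 genes and for *Fgfr4*, which did not pass (0.33, adjusted p = 0.0993, edgeR), the genotypes did not overlap, against 33.1% of all genes. The signs of the 3 were those of the fed livers. *Erbb3* had 59.3, 40.4 and 41.6 CPM in fasted α7HMZ livers, against 130, 120 and 57.0 CPM in fasted WT livers (−1.12, SE 0.32, adjusted p = 0.0293), and its call was lost without α7HMZ fasted replicate 2 (0.0914) or 3 (0.0820) or WT fasted replicate 1 (0.0934) or 2 (0.106). These were the 4 receptors called, 2 higher and 2 lower, against 15.5% of all genes (6.9% higher and 8.65% lower). In a fit of the fasted livers alone the adjusted p of *Erbb3* was 0.0505. The hepatocyte list summed to 88560 to 103600 CPM in fasted α7HMZ and 143800 to 169800 CPM in fasted WT livers. Further lists that differed were the erythroid list (41.9 to 49.1 CPM in α7HMZ and 75.2 to 85.4 CPM in WT livers) and the endothelial list (371 to 473 CPM in α7HMZ and 226 to 370 CPM in WT livers). The Kupffer cell list summed to 171 to 822 CPM in α7HMZ and 104 to 192 CPM in WT livers. The part of these cells in the results was not tested. *Fgfr1* made up 6.23 ± 0.780% of the FGF receptor sum in fasted α7HMZ livers and 3.38 ± 0.775% in fasted WT livers (SD, n = 3 each).

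Ordered by mean CPM over the 8 groups, the 4 α7HMZ groups came first for *Fgfr1* and *Fgfr2* and last for *Fgfr3*, and no α7HMZ liver overlapped a WT liver for *Fgfr1* or *Fgfr3*. For *Fgfr1* the lowest α7HMZ group was the fasted one (12.2 ± 2.45 CPM) and the highest WT group that of 13:30 (7.93 ± 0.0508 CPM). For *Fgfr3* the highest α7HMZ group was that of 20:30 (12.48 ± 2.27 CPM) and the lowest WT group the fasted one (16.8 ± 1.02 CPM). For *Erbb3* the 4 WT groups came first, but WT livers at 20:30 (58.0 ± 15.8 CPM) overlapped α7HMZ livers at 13:30 (49.8 ± 3.52 CPM). For *Egfr* the 2 fasted groups came last and apart from all fed groups, at 262 ± 58.8 CPM in α7HMZ livers, against 259 ± 11.5 CPM in WT livers (SD, n = 3 each). WT livers at 20:30 came last for *Klb* (22.7 CPM) and *Igf1r* (1.94 CPM), apart from the next group but not from all groups. For *Klb* they reached 23.8 CPM, and the lowest fasted WT liver had 23.5 CPM. For *Igf1r* they reached 2.19 CPM, and the lowest fed α7HMZ liver at 10:30 had 1.83 CPM. WT livers at 10:30 came first and apart for *Met* (102.8 CPM). For *Fgfr2*, *Fgfr4* and *Erbb2* each group overlapped its neighbours in the order. The groups of this order lie on 2 flow cells, so that gaps between 10:30 and the other fed times were not tested.

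The levels of the receptors were also set against those of 10960 genes over the 24 libraries, as a description of likeness only, since the libraries share genotype, time and flow cell. The log2 CPM of *Fgfr1* was most like those of *Arhgap10* (Pearson's r 0.937), *Slc44a3* (0.903) and *Arhgdia* (0.872), and that of *Fgfr3* most like *Aqp11* (0.926), *Ccbl2* (0.902) and *Ndrg2* (0.898). For *Fgfr2* they were *Mvb12b* (0.884), *Tmem164* (0.883) and *Cd99l2* (0.864). *Erbb3* was most like *Agphd1* (0.926), *C1rl* (0.874) and *Myo5b* (0.866), *Egfr* most like *Rint1* (0.926), *Slc39a14* (0.893) and *Anks4b* (0.889), and *Met* most like *Kalrn* (0.846), *Slc38a4* (0.801) and *Inpp5b* (0.790). For *Klb* they were *Adcy9* (0.861), *Elk4* (0.840) and *Rapgef6* (0.838), for *Fgfr4* *Foxp4* (0.748), *Plekhb1* (0.732) and *Triobp* (0.732), for *Igf1r* *Gm15800* (0.783), *Zfhx3* (0.781) and *Mll2* (0.776), and for *Erbb2* *Zyx* (0.669), *Uaca* (0.627) and *Gas6* (0.619). Among the receptors themselves the highest r was that of *Erbb3* with *Met* (0.681), and the lowest those of *Fgfr2* with *Fgfr3* (−0.768) and of *Fgfr1* with *Erbb3* (−0.704), over the same 24 libraries.

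The genes around the receptors were counted in lists for ligands, other receptors, adaptors, inhibitors and targets, to be read against the 26.5% of all genes called in this comparison. For the average over the fed times, α7HMZ over WT, neither of the 2 FGF ligands tested, *Fgf1* (median 112 CPM over all libraries) and the fasting hormone *Fgf21* (0.625 CPM), and none of the 6 ERBB ligands passed (0 at an unadjusted p under 0.05 in edgeR). *Fgf15*, which is made in the ileum, had at most 1 read per library, and the klotho *Kl* at most 2. Of the 4 HGF and IGF ligands *Igf1* was lower (log2 fold change −0.27, SE 0.063, adjusted p = 0.00296). Of the 8 IGF binding proteins *Igfbp7* (−0.26, adjusted p = 0.00729) and *Igfbp1* (−1.21, adjusted p = 0.0473, edgeR) were lower.

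Of 19 other growth factor receptors, of 25 adaptors and effectors and of 21 receptor inhibitors 4, 3 and 4 were called, shares below the 26.5% over all genes. Of the 19 receptors 2 were higher, the heparan sulfate proteoglycan *Sdc1* (0.43, adjusted p = 0.000192) and the ephrin receptor *Ephb4* (0.33, adjusted p = 0.00455), and 2 were lower, the growth hormone receptor *Ghr* (−0.44, adjusted p = 0.000177) and the angiopoietin receptor *Tek* (−0.28, adjusted p = 0.0490). Of the adaptors and effectors 3 were lower, the lipid kinase subunit *Pik3cb* (−0.46, adjusted p = 8.09e-05), the kinase *Akt2* (−0.22, adjusted p = 0.00656) and the phospholipase *Plcg1* (−0.21, adjusted p = 0.0430). Of the inhibitors 3 were higher, *Socs3* (0.87, adjusted p = 0.00213), the ubiquitin ligase *Cblb* (0.53, adjusted p = 0.00681) and the phosphatase *Ptpn1* (0.22, adjusted p = 0.0341), and the MAPK feedback inhibitor *Spry4* was lower (−1.08, adjusted p = 0.000107, edgeR). Median log2 fold changes were −0.14, 0.01 and 0.03 for these 3 lists.

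Of 10 MAPK target genes 3 were higher, *Il1rn* (1.73, adjusted p = 2.24e-05), *Myc* (1.29, adjusted p = 0.00833) and *Ier3* (0.83, adjusted p = 0.0385), and *Ccnd1* was lower (−0.35, adjusted p = 0.0333, edgeR). All 4 have inputs besides MAPK. Counts were low for *Ier3* (4 to 35 reads per library) and in some libraries for *Il1rn* (3 to 301 reads). Of 7 bile acid genes around FGF15 and FGFR4, 4 were lower: the sterol hydroxylase *Cyp8b1* (−3.45, SE 0.27, adjusted p = 1.9e-08), the bile acid uptake carrier *Slc10a1* (−0.60, adjusted p = 7.28e-07), the export pump *Abcb11* (−0.27, adjusted p = 0.0140) and the nuclear receptor *Nr0b2* (−0.43, adjusted p = 0.0141, edgeR). *Cyp7a1*, *Nr1h4* and *Nr5a2* of this list were tested and not called. The median of the list was −0.32, against 0.027 for all genes.

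Cell type markers were compared over the same fed libraries. Of the hepatocyte markers 5 of 9 were lower in α7HMZ livers, with log2 fold changes of −0.26 (*Serpina1c*) to −0.65 (*Apob*). Of the cholangiocyte markers *Sox9* (1.24) and *Spp1* (0.43) were higher and *Krt23* (−1.21) lower of 8, and the summed level of that list was 60.0 to 73.6 CPM in α7HMZ livers, against 49.9 to 59.0 CPM in WT livers at 10:30, 52.5 to 68.3 CPM in α7HMZ livers, against 39.9 to 44.8 CPM in WT livers at 13:30, and 73.5 to 102.3 CPM in α7HMZ livers, against 46.9 to 83.2 CPM in WT livers at 20:30. Its *Cftr* was near 0. The stellate cell (0 higher and 1 lower of 10), endothelial (0 and 1 of 10) and Kupffer cell lists (0 and 0 of 9) had none called higher. Of the smooth muscle (5), lymphocyte (4) and mesothelial markers (3) tested none was called, no neutrophil marker passed the filter, and 1 of 2 acinar markers (*Cela1*) and the 1 erythroid marker tested (*Alas2*) were lower. The part of these cells in the receptor results was not tested.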

How the data were processed

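Liver poly(A) RNA of 24 mice was sequenced as 75-bp single-end reads with a kit that does not mark strand. The authors used TopHat2 2.1.1 for alignment to mm10 and HTSeq 0.6.1 for counting, as given in the paper's methods and in submitters' processing notes. The deposited values for 23411 gene symbols are raw counts. The deposited FPKM were used only for the lengths they imply, as an alternative for the FGF receptor shares and the order of the receptors. They are normalized to library size and gene length by the authors.

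Genes kept by filterByExpr were scaled by TMM and tested with glmQLFit and glmQLFTest of edgeR 4.0.16 in R 4.3.3, and p-values were adjusted over all genes tested (Benjamini-Hochberg, threshold 0.05). The 18 fed libraries formed 1 fit (13334 genes) and the 12 libraries at 10:30 another (13103 genes). The SE was taken from the log2 fold change and the F statistic, as their ratio with F under a square root. Each library is 1 mouse, and the tests set differences between groups against the spread between mice, estimated over the groups of the fit. Samples were grouped by their labels. CPM used TMM factors over 24 libraries, and levels per kilobase the union of annotated exons. The fits were tested on simulated data.

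The receptors, the 9 pathway lists and the 11 marker lists were chosen with earlier results of these data known. Named genes are all receptors, up to 4 genes of a pathway list that passed the fed average, and the 3 genes most like each receptor in log2 CPM (mean of at least 1); other genes are named as markers or where a limit rests on them. Promoters came from RefSeq (GRCm38.p6). The alternatives were other normalizations (relative log expression, upper quartile, full quantile offsets by GC content), DESeq2 1.42.0, other filters on low counts (none, or at least 50 counts in 3 libraries), all 24 libraries in 1 fit, only the groups compared, a replicate block, *Rn45s* left out, 4 libraries left out, a minimum absolute log2 fold change of 0.5, other gene lengths, and each library left out in turn. Columns were matched to samples by name. Python 3.11.15 with pandas 2.3.3 was used for tables.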

Additional observations from a re-analysis of the deposited data

Results flagged for a closer look

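Both results below were found by the test that the difference between α7HMZ and WT livers changes between the 3 fed times. For *Erbb3* the edgeR adjusted p was 0.0358, with log2 fold changes of −2.01, −0.87 and −0.44 at 10:30, 13:30 and 20:30. For *Met* it was 0.0239, with −0.79, 0.23 and −0.19. The flow cell of the fed livers at 10:30 was not that of the livers at 13:30 and 20:30, in either genotype. Time of day and flow cell therefore cannot be told apart in the change between 10:30 and the later times.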

How the results depend on the processing

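Of 140 counts of called receptors computed under settings other than leaving out 1 library, 137 stayed within 1.5 times the reported count, and no called value changed sign. The 3 exceptions were 3 receptors instead of 5 for the fed average with a minimum absolute log2 fold change of 0.5, 1 instead of 2 for genotype by time with all 24 libraries in 1 fit, and 0 instead of 2 for fasting in α7HMZ livers with only the groups compared, a fit with fewer libraries. The share of *Fgfr1*, reported as 10.1% in α7HMZ and 4.56% in WT fed livers, was 13.5% and 6.21% with the longest transcript, 3.12% and 1.54% with the lengths implied by the FPKM, and 16.9% and 7.93% with no length. Leaving out each library in turn gave 4 to 6 called receptors for the fed average, 4 to 7 at 10:30, 3 to 4 at 13:30, 2 to 3 at 20:30, 0 to 2 for genotype by time, 0 to 0 for 20:30 against 13:30 in α7HMZ livers, 1 to 4 in WT livers and 0 to 0 for their difference, 1 to 1 for fasting in WT livers, 0 to 2 in α7HMZ livers, 3 to 4 for genotype in fasted livers and 0 to 0 for genotype by fasting, and an *Fgfr1* share of 9.87% to 10.3% in α7HMZ and 4.45% to 4.62% in WT livers. Of 1388 values of single receptors under the other settings 13 changed side of the threshold, and of 1920 with 1 library left out 41 did; the calls of *Fgfr1* and *Fgfr3* at each fed time were kept in all of them. DESeq2 called 1584 genes for genotype by time, against 665 in edgeR, 219 against 30 for genotype by 20:30 against 13:30, and 200 against 33 for genotype by fasting.

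Replicate numbers did not pair the samples: the deviations of the 84 same-numbered pairs had a mean correlation of −0.0177, and 7 of 24 libraries were most like their own number. With the replicate number as a block 5 receptors were called for the fed average, 4 at 10:30, 4 at 13:30, 2 at 20:30 and 2 for genotype by time, as without it, while all genes called for genotype by time fell to 454, against 665. *Erbb2* had as few as 7 reads in a library and the largest SE of the fed average among the receptors (0.23).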
